A study of Mus musculus with 2 samples.

Results

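Mouse chromosome 7 held 1881 of the 33783 genomic regions (peaks) that were called on chromatin taken to carry O-GlcNAc-modified Oct4 in embryonic stem cells. The chromosome was chosen by the numbers of tags in its peaks, since its density lay below that of the other autosomes for weak peaks and above it for strong ones. Its peaks are all peaks of the list on that chromosome. They were divided by the number of sequenced tags in the peak into weak (9 to 12 tags, 1066 peaks), intermediate (13 to 17 tags, 326 peaks) and strong (18 or more tags, 489 peaks). The values that chose it are therefore given as a description and without a test.

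Both libraries came from the embryonic stem cell line ZHBTc4 F-Oct4, of mouse, whose Oct4 bears a Flag tag. Chromatin bound with anti-Flag antibody was bound again, to sWGA beads in one library and to a control in the other. The labels name that control as an input, as IgG and as agarose beads. Each group had 1 library, with 6129874 sWGA tags and 78351 control tags after the filtering of the caller, so no value below has a replicate error and no p-value is given.

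Oct4 is the POU-domain transcription factor that pluripotent cells need, and O-GlcNAc is a single sugar that the enzyme Ogt attaches to serine and threonine of nuclear proteins. sWGA is a lectin that binds N-acetylglucosamine. In cross-linked chromatin it can also retain other glycosylated proteins at the same site. Mouse chromosome 7 is known for long tandem arrays of chemosensory receptor genes, for other arrays such as zinc finger and kallikrein genes, and for imprinted domains. Near-identical tandem copies are a known difficulty for short reads, which often cannot be placed in them uniquely.

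Weak peaks were a smaller and strong peaks a larger part of the list on chromosome 7 than elsewhere. Of its 1881 peaks, 489 (26.0%, exact 95% interval 24.0 to 28.0) were strong, where 21.4% of all peaks of the list and 21.0% of those on the other autosomes were. Weak peaks made up 56.7% (54.4 to 58.9), against 62.3% of all peaks and 62.7% on the other autosomes. The share of strong peaks was the highest and the share of weak peaks the lowest of the 19 autosomes. Others came close, with overlapping intervals: strong peaks were 24.7% (21.9 to 27.7) on chromosome 19 and 24.3% (22.5 to 26.2) on chromosome 11. Weak peaks were 58.7% (56.5 to 60.8) on chromosome 11. Chromosome 6 stood at 20.2% strong (18.4 to 22.0) and chromosome 8 at 22.0% (19.97 to 24.0). These intervals cover counting error only and take peaks as independent, which neighbouring peaks are not.

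Per Mb of listed chromosome, chromosome 7 held 6.997 weak peaks, where the other autosomes held 8.47, a ratio of 0.826. It held 3.21 strong peaks per Mb against 2.84, a ratio of 1.13. Intermediate peaks were at 0.974 of the density elsewhere. Weak peaks were thus sparser here than on any other autosome, while strong peaks ranked 4 of 19. Chromosome 18 was nearly as sparse in weak peaks, at 7.09 per Mb (0.840 of the others), but its strong peaks were sparse too (0.788). Without gaps of 1 Mb or more between peaks, chromosome 7 held 7.90 weak peaks per Mb. This was above chromosome 18, which had no such gap, so the lowest rank of chromosome 7 depended on its gaps. Chromosome 8 shared the low weak density, at 0.881 of the others, but not the high strong density, which was 0.951. Chromosome 6 was close to the others in both, at 1.01 for weak and 0.932 for strong peaks.

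The ratio did not climb steadily with tag number. It lay between 0.805 and 0.867 at each of 9, 10, 11 and 12 tags, and at 0.974 for 13 to 17 tags. It was 1.18 for the 326 peaks of 18 to 29 tags, the third highest density among autosomes for that range. For the 137 peaks of 30 to 59 tags it was 1.03 and ranked 8. Above that, 22 peaks of 60 to 99 tags gave 1.09 and 4 peaks of 100 or more gave 1.32, on counts too small to order the chromosomes. The excess of strong peaks on chromosome 7 over the other autosomes was therefore mainly at 18 to 29 tags (2.14 against 1.81 peaks per Mb). Most strong peaks were in that range on chromosomes 6 (251 of 400) and 8 (222 of 359) too.

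**Figure D1:**
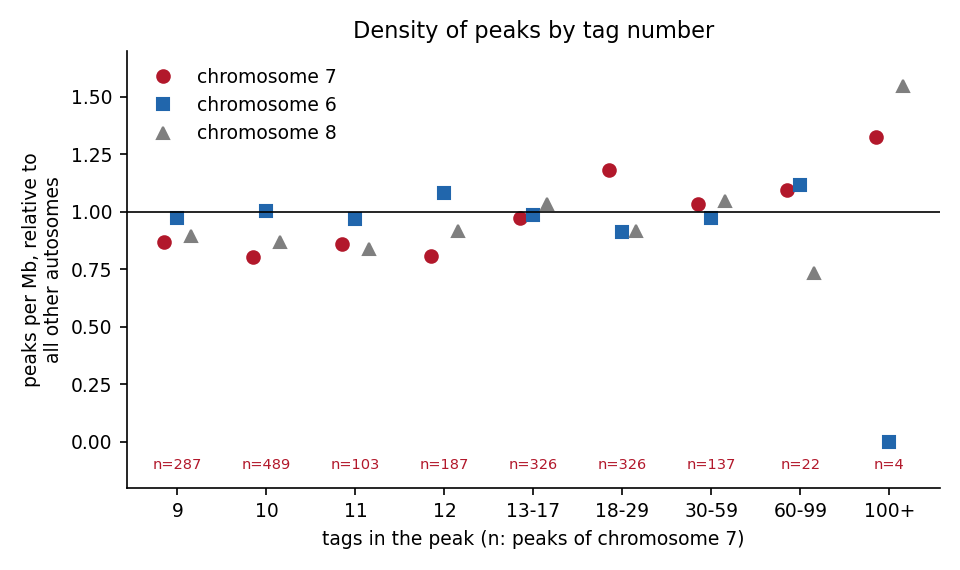
Peaks per Mb on chromosomes 7, 6 and 8, each divided by the density on all other autosomes (vertical axis, ratio), by the number of tags in the peak (horizontal axis). Chromosome 7 lies below 1 at 9 to 12 tags and reaches 1.18 at 18 to 29 tags; n gives its number of peaks in each range.

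At the borders of the classes, chromosome 7 held 287 peaks of 9 tags, the fewest tags of any of its peaks, at a median score of 59.46. The score is the authors' value, -10 log10 of the p-value, and the cutoff of the caller equals a score of 50. It held 187 peaks of 12 tags (median score 85.06) beside 67 of 13 tags (95.79). It held 34 peaks of 17 tags (125.18) beside 53 of 18 tags (128.55). The median score thus moved in small steps across both borders.

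Within a class, the peaks of chromosome 7 had much the same shape as those elsewhere. The median strong peak was 568 bp long with 24 tags and a score of 186.66. On the other autosomes the medians of strong peaks were 582 bp, 25 tags and 187.73. Weak peaks had a median of 385 bp and 10 tags here, and 390 bp and 10 tags elsewhere. The classes are defined by tags, so like medians of tags, and of the score tied to them, follow in part from the class borders. Strong peaks held 14853 of the 30488 tags in chromosome 7 peaks (48.7%), where strong peaks on the other autosomes held 42.1% of the tags. This goes with the larger share of strong peaks given above and is no separate result. When peaks were classed by tags per 100 bp in place of tags, with the same autosomal shares in each class, the weak ratio was 0.848 and the strong ratio 1.02. Counted by tag concentration, the excess in strong density was thus nearly absent. The share of strong peaks was then 23.6% on chromosome 7 and 21.1% on the other autosomes.

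Some stretches of chromosome 7 held no weak peak. Weak peaks were counted in fixed windows of 1 Mb from position 0, leaving out the windows before the first listed region, which left 150 windows. Of these, 12 (8.00%) held no weak peak, the highest share of any autosome, where 1.24% of all autosomal windows did. On chromosome 6 it was 0 of 147 windows and on chromosome 8 it was 2 of 129. Chromosome 14 came next to chromosome 7, with 6 of 122 (4.92%). On chromosome 14, 20 windows held 0 or 1 weak peak, against 18 on chromosome 7, so windows with so few were not particular to chromosome 7. In 11 of the 12 windows of chromosome 7 without weak peaks there was no peak of any class, so these stretches lacked strong peaks too. The exception, from 7 to 8 Mb, held 1 intermediate and 3 strong peaks. The median window held 7 weak peaks on chromosome 7, 8 on chromosome 6 and 7 on chromosome 8.

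**Figure D2:**
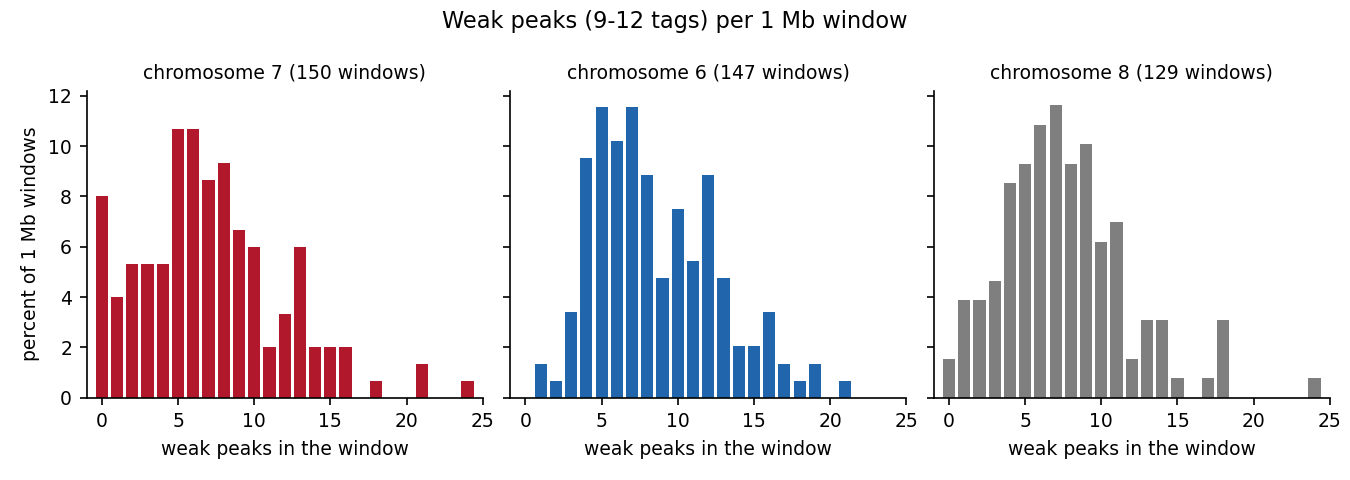
Percent of 1 Mb windows (vertical axis) that hold a given number of weak peaks (horizontal axis) on chromosomes 7, 6 and 8. Chromosome 7 has a separate column at 0 weak peaks, of 8.00% of its windows, which is absent on chromosome 6.

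The longest such stretch lay between 40 and 46 Mb, where 6 windows in a row were empty. Measured between summits (the highest point of each peak), 7.32 Mb without a peak separated a strong peak of 73 tags at 39183301 to 39184027 from a strong peak of 18 tags at 46504908 to 46505423. The longest gap on chromosome 6 was 0.666 Mb and that on chromosome 8 was 2.10 Mb. No other autosome had one over 2.83 Mb.

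The second stretch, 3.54 Mb long, ran from a peak of 12 tags at 20607127 to 20607565 to one of 19 tags at 24144814 to 24145282. It covers the 3 empty windows from 21 to 24 Mb. The third, of 2.47 Mb, lay between a peak of 31 tags at 7252174 to 7252594 and one of 10 tags at 9724532 to 9724806. Smaller gaps were those of 1.64 Mb from 32.4 Mb and of 1.31 Mb from 15.2 Mb. A sixth gap of over 1 Mb, from 9756092, measured 1.07 Mb. Together the 6 gaps took up 17.3 Mb, whereas chromosome 6 had none of that length and chromosome 8 had 3 with 5.50 Mb in all. Among the other autosomes only chromosome 14 came near, with 10 gaps and 15.8 Mb. These lengths are of stretches without any peak. Measured between weak summits alone, the 3 longest gaps on chromosome 7 were 7.49, 3.64 and 2.84 Mb. By that measure it had 9 gaps of at least 1 Mb with 21.6 Mb in all, chromosome 6 had 1 with 1.06 Mb and chromosome 8 had 4 with 7.82 Mb.

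The 6 gaps without any peak were edged by peaks of every class, from 10 to 73 tags. They held 0 of the 37 control regions of the chromosome. Control regions come from the exchanged call, in which the sWGA library served as background, and 29 of the 37 rested on 3 tags. Their density was 0.243 per Mb on chromosome 7 and 0.285 on the other autosomes. Whether reads can be placed in the gaps was not tested.

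All 12 windows without weak peaks lay between 7 and 46 Mb, and this part of the chromosome also held most windows rich in strong peaks. Of 13 windows with at least 10 strong peaks on chromosome 7 (3.14% of all autosomal windows reached that number), 10 lay below 40 Mb. The following division at 46 Mb was made after the values were seen. From 3 to 46 Mb, 186 of 539 peaks were strong (34.5%, 30.5 to 38.7), and strong peaks stood at 4.33 per window, 1.496 times the 2.89 of the other autosomes. Weak peaks stood at 5.98 per window there, 0.692 of the 8.64 elsewhere, or at 8.29 when only windows with a weak peak were counted. From 46 Mb to the end, 303 of 1342 peaks were strong (22.6%, 20.4 to 24.9), at 0.979 of the density elsewhere, while weak peaks were at 0.875. The high density of strong peaks was thus found in the part before 46 Mb, and weak peaks were below the other autosomes in both parts.

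In segments of 10 Mb the share of strong peaks ranged from 10.3% to 40.6% over 16 segments. It ranged from 13.6% to 27.2% over 15 segments of chromosome 6 and from 7.14%, in a last segment of 14 peaks, to 29.6% on chromosome 8. The share was 40.6% from 0 to 10 Mb, 34.0% from 10 to 20 Mb, 31.9% from 20 to 30 Mb and 34.2% from 30 to 40 Mb. Each of these 4 exceeded every later segment, of which the highest, from 130 to 140 Mb, had 29.3%. Below 40 Mb, 34.5% of peaks were strong on chromosome 7, 17.9% on chromosome 6 and 24.2% on chromosome 8.

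**Figure D3:**
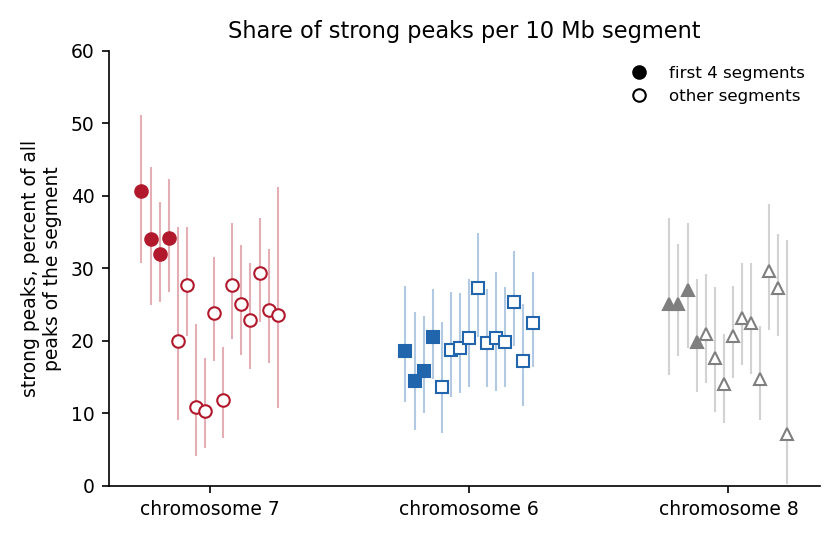
Strong peaks as a percent of all peaks (vertical axis) in each 10 Mb segment of chromosomes 7, 6 and 8, in order along the chromosome from left to right. Bars are exact 95% intervals and filled symbols mark the first 4 segments, which on chromosome 7 reach from 31.9% to 40.6%.

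The lowest shares lay in the middle of the chromosome. From 60 to 70 Mb 6 of 55 peaks were strong (10.9%) and from 70 to 80 Mb 11 of 107 (10.3%). No window there lacked weak peaks, which were at 6.20 per window, while strong peaks were at 0.85 per window, 0.294 of the other autosomes. From 90 to 100 Mb 14 of 118 peaks were strong (11.9%). A stretch of few strong peaks was thus not the same as a stretch without peaks. The window from 73 to 74 Mb showed this most plainly, with 13 weak, 2 intermediate and 0 strong peaks.

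Some windows were rich in strong peaks. The 10 windows with the most strong peaks, 6.67% of all windows, held 136 of 489 strong peaks (27.8%) and 147 of 1066 weak peaks (13.8%). In them 39.3% of peaks were strong, and 23.0% in the other 140 windows. Since these windows were picked by their strong peaks, a higher strong share in them follows from the choice. The 10 richest windows of chromosome 6 (6.80% of its windows) held 20.5% of its strong peaks, and those of chromosome 8 (7.75%) held 27.9%. By this share chromosome 7 ranked 9 of the 19 autosomes, which differ in their number of windows. Without these 10 windows, and without the same share of windows on every other autosome, the strong ratio was 1.05 and the weak ratio 0.793.

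The window from 52 to 53 Mb led, with 20 strong, 9 intermediate and 21 weak peaks, and its strongest peak held 79 tags at 52317148 to 52318470. That from 30 to 31 Mb held 18 strong, 10 intermediate and 21 weak peaks, the strongest of 53 tags at 30879572 to 30880318. The windows from 134 to 135 Mb and from 13 to 14 Mb each held 14 strong peaks, but the first had 13 weak peaks and the second only 5. Their strongest peaks held 65 tags, at 134592473 to 134592908, and 78 tags, at 13599170 to 13600160. The window from 28 to 29 Mb had the most weak peaks of all, 24, with 12 strong ones, the strongest of 46 tags at 28138954 to 28139778. The 3 windows with the most weak peaks were thus all among the 10 richest in strong peaks.

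Strong peaks outnumbered weak ones in 12 of the 150 windows. The widest difference was in the window from 13 to 14 Mb, with 14 strong and 5 weak peaks. Others were those from 3 to 4 Mb (12 and 6), from 138 to 139 Mb (5 and 1) and from 7 to 8 Mb (3 and 0). In the opposite direction, 10 windows held at least 5 weak peaks and no strong one. Neither count was compared with other chromosomes, so neither is given as particular to chromosome 7. Windows without a strong peak, empty ones included, were 23.3% of those on chromosome 7, 21.1% on chromosome 6 and 25.6% on chromosome 8.

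Across windows, weak and strong peaks went up and down together. Over the 150 windows Spearman's correlation coefficient of weak and strong counts was 0.599 and Pearson's r was 0.631, given as a description, since windows share the library, its depth and the ease of placing reads. The Spearman coefficient was 0.494 on chromosome 6 and 0.431 on chromosome 8, and only chromosomes 14 and 17 had a higher one. Without the windows that hold no peak it was 0.520 on chromosome 7. The share of strong peaks hardly moved with the number of weak peaks. It was 25.9% in windows of 3 to 5 weak peaks, 25.3% in those of 6 to 9 and 26.2% in those of 10 or more. In the 26 windows of 0 to 2 weak peaks it was 32.0% (19.5 to 46.7) on only 50 peaks. Windows poor in weak peaks were thus poor in strong ones too, at 0.615 strong peaks per window, against 6.05 in windows of 10 or more weak peaks. The 26 windows include the 11 that held no peak of any class, which lower the first of these values.

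**Figure D4:**
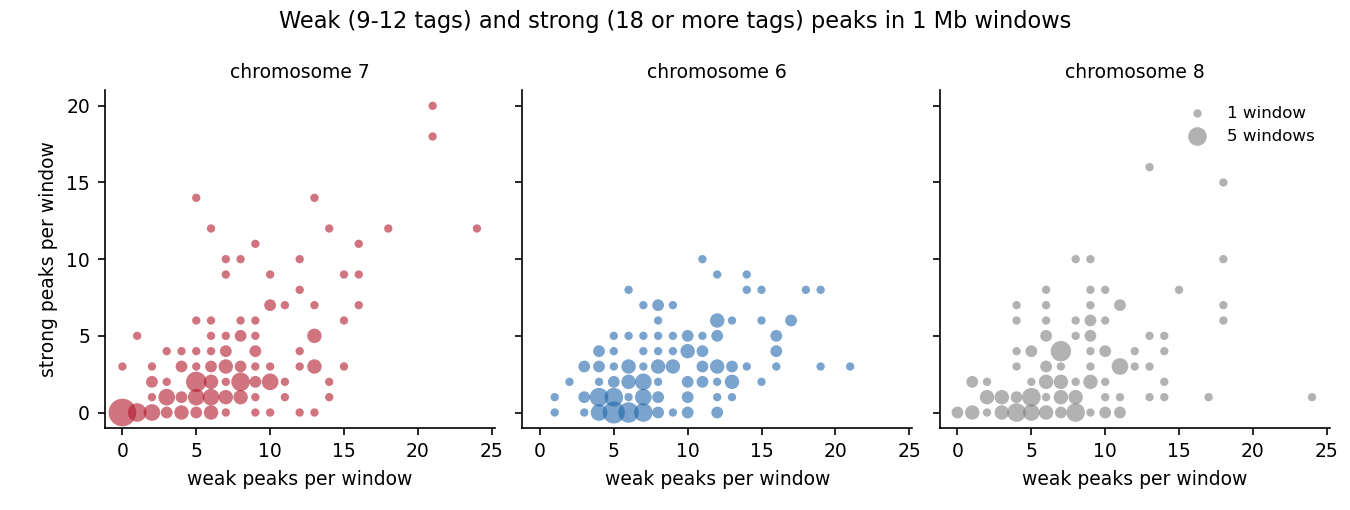
Strong peaks (vertical axis) against weak peaks (horizontal axis) in each 1 Mb window of chromosomes 7, 6 and 8; the area of a point gives the number of windows. Chromosome 7 has both the large point at 0 weak and 0 strong peaks, of 11 windows, and the windows of 18 and 20 strong peaks.

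Strong peaks lay close to other peaks. The median distance from a strong summit to the nearest other strong summit was 41.9 kb on chromosome 7, 73.5 kb on chromosome 6 and 61.7 kb on chromosome 8. Of the 489 strong peaks, 95 (19.4%) had another within 10 kb, against 16.5% on chromosome 6 and 16.2% on chromosome 8. On chromosome 7 the nearest weak summit was 24.0 kb away at the median for strong peaks and 34.4 kb for weak ones. For strong peaks this median was 24.5 kb on chromosome 6 and 28.4 kb on chromosome 8, on both again shorter than for weak peaks. A weak summit lay within 10 kb of 27.8% of strong peaks on chromosome 7, 32.5% on chromosome 6 and 25.6% on chromosome 8. The closeness of strong to weak peaks was thus not particular to chromosome 7. When summits no more than 10 kb apart were joined, 1113 of 1425 groups (78.1%) consisted of 1 peak. Of the single peaks 24.3% were strong, and of the 768 peaks in larger groups 28.4%. These shares were 16.8% and 25.4% on chromosome 6, while on chromosome 8 213 of 1065 single peaks and 25.6% of the others were strong. The excess of strong peaks was thus also present among peaks with no neighbour.

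On chromosome 7, 15 groups held 5 or more peaks, 86 in all. Of these peaks 29 (33.7%) were strong, against 26.0% of all peaks of the chromosome. Chromosome 6 had 9 such groups with 32.7% strong peaks and chromosome 8 had 7 with 37.5%. A strong share of this size in large groups was thus not particular to chromosome 7. The group with the most peaks, 8 within 22.0 kb at 52872398 to 52894350, had no strong peak: it held 6 weak and 2 intermediate ones, with 92 tags. A group of 5 peaks that began 54.8 kb further on, at 52949113 to 52973652, had 161 tags, and 4 of its peaks were strong. The window from 52 to 53 Mb therefore held both kinds of group. The 7 peaks at 13591391 to 13610020 had 167 tags in all, with 3 strong peaks. The group richest in tags, with 171, had 6 peaks at 3184304 to 3214130, of which 4 were strong, and a control region of 3 tags lay in the same stretch at 3202366 to 3202756.

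The peaks with the highest fold and those with the most tags were spread over the chromosome. Fold is the authors' ratio of tag height at the summit to the background expectation. The 10 highest by fold and the 10 highest by tags were 13 different peaks in 13 different windows. Of these, 2 lay in the 10 windows richest in strong peaks, which held 18.4% of all peaks of the chromosome. The tenth highest fold, 90.53, was shared by 4 peaks, of which the one with the most tags was taken; with all 4 there were 16 peaks, 4 of them in those windows. The highest fold, 155.48, belonged to a peak of 100 tags at 91027384 to 91028157, in a segment where few peaks were strong. Next came a peak of 88 tags at 147323336 to 147323839 with a fold of 139.74 and one of 81 tags at 129276266 to 129276792 with 133.83. A compact peak of 493 bp at 27491254 to 27491746 had 108 tags, a fold of 129.90 and the highest score of the chromosome, 1541.33.

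The peak with the most tags, 110, had one of the lowest folds. It lay at 48837367 to 48837926, with a fold of 6.35 and a score of 168.43, and ranked 1877 of 1881 by fold. Its fold equals 77.0 tags at the summit over the 12.1 tags expected where 1 control tag lies within 1 kb. A peak of 108 tags at 26022614 to 26023744 had a fold of 23.91, equal to 29.0 tags over the 1.21 expected where 1 control tag lies within 10 kb. A peak of 90 tags at 80544743 to 80545587 had a fold of 53.60, or 65.0 tags over that expectation. In the caller 1 control tag stood for 78.2 sWGA tags. The fold alone does not give the number of control tags near these 3 peaks, since more tags at the summit over more control tags can give the same ratio.

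Of all 1881 peaks, 1721 had a fold of whole tags over the genome-wide expectation of 0.508 tags, within 0.01 tags, and 160 (8.51%) had another background. This was so for 2.53% of weak peaks (1.68 to 3.66), 11.96% of intermediate peaks (8.65 to 15.99) and 19.2% of strong peaks (15.8 to 23.0). On the other autosomes it was 2.88%, 14.1% and 22.0%. All 36 strong peaks that scored under 100 were among the 94 strong peaks with another than the genome-wide background, whose median score was 122.18 at a median of 28 tags. The other 395 strong peaks had a median score of 196.73 at 24 tags. Since the score is set against the background, this difference follows from how it is computed and is no separate result.

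**Figure D5:**
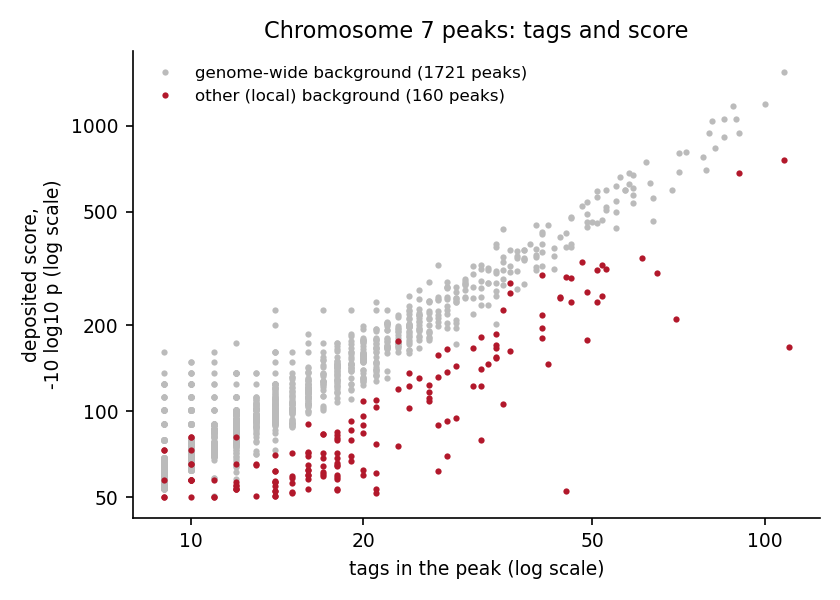
Deposited score (vertical axis, log scale) against tags (horizontal axis, log scale) of the 1881 peaks on chromosome 7. Red marks the 160 peaks with another than the genome-wide background, grey the other 1721. Among strong peaks the red ones have the lower median score (122.18 against 196.73), which follows from a score set against the background. The peak of 110 tags stands at 168.43.

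The receptor arrays could not be laid over the windows, because the gene table used here (RefSeq, GRCm38.p6) is of another build than the peaks (mm9). Only names, chromosomes and neighbours were taken from it. Chromosome 7 carries 2030 of the 21896 protein-coding genes in that table (9.27%). It carries 126 of 230 Vmn1r genes and 52 of 123 Vmn2r genes, the 2 families of vomeronasal pheromone receptors, and 239 of 1110 Olfr genes, the odorant receptors. Chromosome 6 carries 51, 9 and 28 of these genes and chromosome 8 carries 0, 0 and 5. On chromosome 7, 14 unbroken runs of at least 10 such receptor genes hold 282 genes, against 4 runs with 57 genes on chromosome 6 and none on chromosome 8. The longest has 42 Olfr genes between Ovch2 and Nlrp10, and the longest of Vmn2r genes alone has 16, between Clcn4 and Gm10302.

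Other families with arrays on this chromosome are the Zfp genes, many of which encode KRAB zinc finger repressors of transposable elements, with 93 of 400 there, and the Klk genes of the kallikrein proteases, with 26 of 27. All 13 Psg genes, of the placental glycoproteins, and all 15 Ceacam genes, of cell adhesion, are there too. Short lists of pluripotency and imprinted genes were drawn up from genes known to lie on chromosome 7, so their place there is no finding. They include Fgf4, a growth factor of early embryos, Utf1, a chromatin protein of stem cells, and the Mir290 cluster, the main microRNA cluster of these cells. The imprinted genes include Peg3, Snrpn, H19 and Igf2. No peak was assigned to any of these genes, and whether the empty windows or the windows rich in strong peaks coincide with any of these arrays was not tested. For the same reason the labelled cell type was not checked against its marker genes.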

How the data were processed

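Peak lists of 2 libraries were used, 1 per group. Per the file headers, the authors called peaks with MACS 1.4.1 on the sWGA library against the control, at a p cutoff of 1.00e-05 and a fragment length of 155 bp. The smaller library was scaled up, and at most 2 duplicate tags per position were kept in the sWGA library and 1 in the control. Positions are on mm9, per the submitters' processing notes. The aligner is not given in the sources used here. Tags are deposited as whole counts per region, not scaled. The deposited score is -10 log10 p, the deposited fold is a ratio of summit height to background, and the deposited FDR, in percent, was not used for any result. All positions are 1-based, as deposited.

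From these lists, counts per class, per window and per Mb were computed with Python 3.11.15, numpy 2.4.6, pandas 2.3.3 and scipy 1.17.1. A peak was counted in the window of its summit. Density was divided by the last listed position of the chromosome in either list. Named regions are the 10 highest by fold and by tags, the strongest peak of the 5 windows richest in strong peaks, the longest stretches without weak peaks and the 3 windows with the most weak peaks. Other gaps, groups and windows were picked after their values were seen. The members, the lists and these rules were chosen with earlier results of these data known. The counts per window, the finding of runs of empty windows, the density ratio and the joining of summits were tested on simulated data. The other steps were not. No genome of the build was used here, so no peak sequence is printed, and motifs, gene starts and gene content of windows were not analysed here.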

Additional observations from a re-analysis of the deposited data

How the results depend on the processing

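No paired analysis was possible because there was 1 library per group; replicates to leave out did not exist. The weak ratio of 0.826 stayed below 1 under 9 alternatives (0.789 to 0.916). It was 0.883 per window with a peak, 0.906 without windows of 0 or 1 weak peak, 0.879 against chromosomes 6 and 8, and 0.916 without gaps of 1 Mb or more, an alternative added after seeing the data. The strong ratio of 1.13 stayed above 1 under 9 alternatives (1.02 to 1.25), at 1.02 by tags per 100 bp and 1.25 without those gaps. The share of strong peaks, 26.0%, was 39.7% with a score of at least 100 (33.5% on the other autosomes), 23.6% by tags per 100 bp (21.1%) and 30.2% with peaks within 10 kb joined (24.5%). Windows without weak peaks were 15.7% of 0.5 Mb windows and 5.26% of 2 Mb windows, against 8.00% at 1 Mb. The richest windows of the same total length held 33.7% of strong peaks at 0.5 Mb and 22.1% at 2 Mb. The Spearman correlation of weak and strong counts per window was 0.411 with peaks joined. Groups of 5 or more peaks numbered 15 at 10 kb, 5 at 5 kb and 40 at 20 kb. The alternatives on motifs, gene starts and gene content were not run, since no genome of the build was used. The 3 control tags behind most control regions limit what the control shows.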
